A study of Mus musculus with 9 samples.

Results

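Middle cerebral artery occlusion (MCAO) is a surgical model of ischaemic stroke in which the artery that feeds much of the cortex and striatum is blocked, and the comparison here is of brain tissue from MCAO mice with brain tissue from control mice. The rule took the 3 libraries labelled as treated with MCAO surgery and the 3 labelled control, so 6 of the 9 libraries of the series entered, and all genes of the count table were considered. The other 3 libraries came from MCAO mice that also received hypidone hydrochloride (5 mg/kg over 7 days), and they are used only where a fit over all libraries is named. Libraries are called by group and by the number in their title: control 4, 5 and 6, and MCAO 4, 5 and 6. The labels give the tissue as brain and name no other agent or allele in either group. Strain, age, brain region, hemisphere, a sham operation, a vehicle and the time between surgery and collection were not stated there, although the series title speaks of ischaemia and reperfusion. The labels do not tie each library to its own animal, and a p-value here measures the spread between these libraries, which may be technical.

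When a brain artery is blocked, the tissue it feeds loses oxygen and glucose together. Neurons in the core die within hours, while cells around it shut down costly work such as synaptic plasticity and draw on stress programmes that spare energy or guard against damage. Microglia, the resident macrophages of the brain, and astrocytes then react, blood-derived macrophages and neutrophils may enter, and a scar of matrix proteins forms over days. Stress hormones (glucocorticoids) rise after stroke as well and act on most brain cells through a nuclear receptor. Sterol synthesis is the pathway by which brain cells make their own cholesterol, since blood cholesterol does not pass into the brain.

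Each library held between 32075682 and 37325027 gene counts, and 14489 of 18138 genes had enough counts to be tested. The spread was larger among MCAO libraries, with a biological coefficient of variation of 40.2% against 28.9% among controls. Values are given as CPM, counts scaled to a common library total with TMM factors. On their log2 scale the leading principal component (51.5% of variance) placed the controls at -49.3, -38.1 and -49.0 and MCAO 4, 5 and 6 at -3.53, 91.4 and 48.7. MCAO 4 was therefore the nearest of its group to the controls on this component. The second component (23.5% of variance) placed control 4, 5 and 6 at 3.45, 44.6 and 4.80 and MCAO 4, 5 and 6 at -59.9, 36.3 and -29.2. There MCAO 4 was the furthest from the controls. Control 5 stood apart from the other controls in genes of the hippocampus and of the choroid plexus, the tissue that makes cerebrospinal fluid. Its mean log2 CPM over 11 tested hippocampal genes was 5.67, against 1.78 to 2.09 in the 5 other libraries, and over 6 choroid plexus and ependyma genes it was 4.88, against 1.17 to 3.13. Pan-neuronal genes, which check the tissue label, had a mean log2 CPM of 8.53 to 9.67 in all 6 libraries. Y-linked genes were detected in every library. Kdm5d lay at 13.9 to 18.4 CPM in both groups (adjusted p = 0.733), Ddx3y at 55.3, 51.6 and 53.3 CPM in control 4, 5 and 6 and 87.8, 78.7 and 75.1 CPM in MCAO 4, 5 and 6, and Eif2s3y at 21.9, 21.8 and 23.2 CPM in control and 34.5, 41.7 and 57.3 CPM in MCAO. The last pair rose (adjusted p = 0.0479 and 0.0472). Ddx3x, the X-linked relative of Ddx3y, rose as well (0.83 ± 0.14, adjusted p = 0.0402). Reads of Y-linked genes may be shared with such X-linked relatives, and whether this takes part in the rises was not tested. Brain markers and a Y chromosome were thus present throughout; hippocampal genes set control 5 apart.

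Of the 14489 genes, 345 (2.38%) were higher and 337 (2.33%) lower in MCAO at an adjusted p under 0.05, together 4.71% of those tested. In all 682 called genes the values of the groups did not overlap, which was so for 34.1% of all tested genes (16.4% with MCAO higher and 17.6% with MCAO lower). Unless another tool is named, called, rose and fell refer to this edgeR fit on the 6 libraries. Counts of called list members further on stand against its shares of 2.38% higher and 2.33% lower. Adjusted p-values of the called genes lay between 0.0112 and 0.0496. At an unadjusted p under 0.05 this fit gave 4201 of the 14489 genes, higher and lower together. List counts at that level further on stand against this share. The share is not split by direction while most of those counts are, so it is larger than a share for a single direction. Increases were larger than decreases: 129 of the 345 higher genes had a log2 fold change of at least 2, and 37 of the 337 lower genes one of at most -2. A fit over all 9 libraries, with the hypidone group sharing in the estimate of spread, called 1567 higher and 1448 lower, or 20.4% of the genes it tested. No gene was called without control 4, without control 6 or without MCAO 6, where edgeR gave 2832, 2722 and 2795 genes at an unadjusted p under 0.05, and without control 5 the counts were 27 higher and 55 lower. Without MCAO 4 they were 1139 and 698, and without MCAO 5 575 and 606. All 682 genes kept their direction with an unadjusted p under 0.05 in each of these 6 fits, which reuse libraries that picked the genes. All 682 were also called in the same direction by DESeq2 and by limma voom with quality weights. All had a q under 0.05 in that direction in the authors' deposited table. From the same counts DESeq2 called 1596 higher and 1333 lower and limma voom 3157 and 3412, so holding the 682 is weak support. List counts from these tools stand against those totals. Limma on log2 FPKM plus 1 called 335 of the 682, edgeR with library totals 433, and edgeR with the title number as a block 0.

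**Figure D1:**
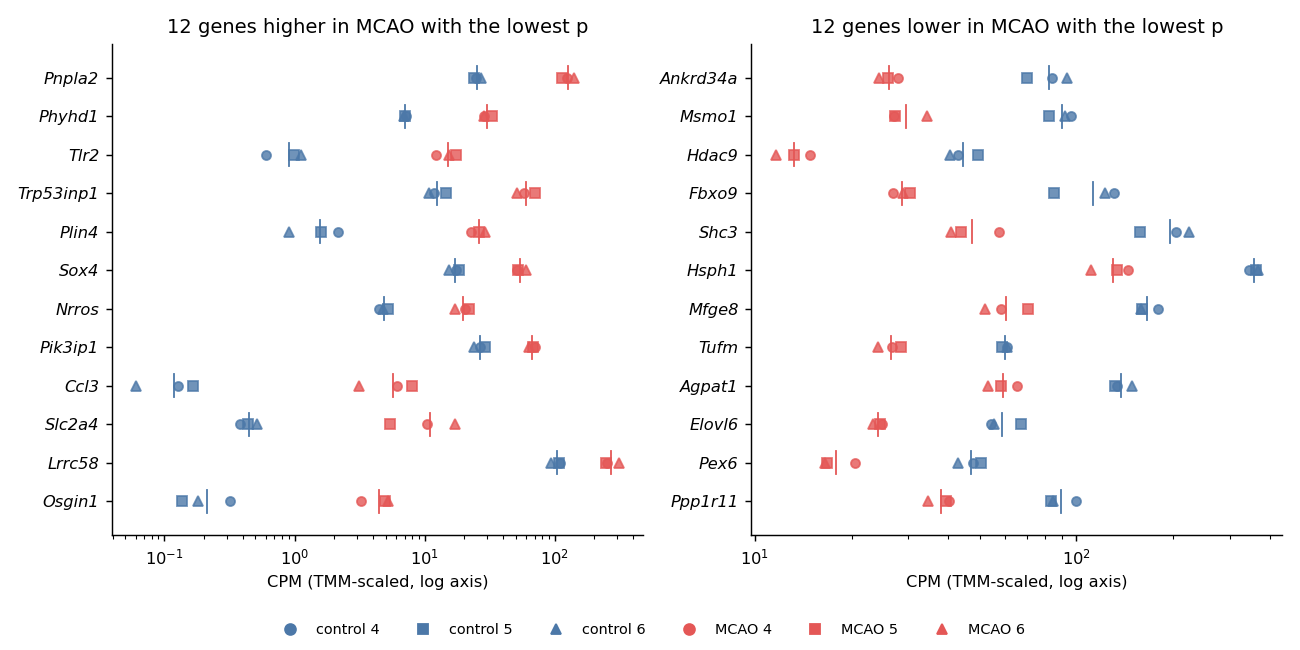
CPM on a log axis for the 12 genes with the lowest p in each direction, with 1 point per library (blue for control, red for MCAO, the shape giving the title number) and a short line at each group mean. In every gene shown the 3 MCAO points lie on one side of the 3 control points, as for Pnpla2, with controls between 23.9 and 26.9 CPM and MCAO between 113 and 139.9 CPM.

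Lipid droplet genes, growth-factor-loss genes and p53 targets were among the increases. Pnpla2 (GENCODE M21 on mm10, chr7:141455198-141460743, plus strand), which encodes the lipase that starts the breakdown of triglyceride in lipid droplets, stood at 24.9, 23.9 and 26.9 CPM in control 4, 5 and 6 and at 124, 113 and 139.9 CPM in MCAO 4, 5 and 6. Its log2 fold change was 2.32 ± 0.14 (SE, adjusted p = 0.0112), and the highest control lay below the lowest MCAO library by more than the range within either group. Plin4, a coat protein of lipid droplets, was at 2.16, 1.59 and 0.909 CPM in control 4, 5 and 6 and at 22.8, 26.0 and 29.2 CPM in MCAO 4, 5 and 6 (4.06 ± 0.35, adjusted p = 0.0236). Angptl4, a secreted inhibitor of lipoprotein lipase, rose by 3.92 ± 0.66 with very unequal libraries, at 11.97, 62.9 and 21.8 CPM in MCAO 4, 5 and 6 against 1.45 to 2.80 CPM in control, and by 3.01 without MCAO 5. Pdk4, a kinase that turns pyruvate away from oxidation, rose by 1.75 ± 0.32. These were the 4 members called by edgeR among 16 tested genes of lipid droplets and fat oxidation, of which limma voom called 9 higher and 1 lower, and the median log2 fold change of the list was 0.81 against 0.00 over all tested genes.

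Slc2a4, which encodes the insulin-regulated glucose transporter GLUT4, was barely detected in control and clearly present after MCAO, at 0.382, 0.439 and 0.515 CPM in control 4, 5 and 6 and at 10.4, 5.37 and 17.1 CPM in MCAO 4, 5 and 6 (4.61 ± 0.52, adjusted p = 0.0277). Pik3ip1, an inhibitor of PI3-kinase, the enzyme through which insulin and growth factors signal, was at 26.7, 29.2 and 24.0 CPM in control 4, 5 and 6 and at 70.8, 68.0 and 63.0 CPM in MCAO 4, 5 and 6, a rise of 1.34 ± 0.14. It belongs to a list of 14 genes of FOXO factors and growth-factor loss, of which 6 rose and none fell, with a median of 0.51. FOXO factors are transcription factors that enter the nucleus when growth-factor signalling falls. The other 5 that rose were Sesn1 and Sesn3, stress-induced inhibitors of the growth regulator mTORC1, at 1.34 ± 0.18 and 0.72 ± 0.15, Klf15, a factor induced by fasting and by glucocorticoids, at 1.34 ± 0.21, Cited2 at 1.01 ± 0.16, and Txnip, a brake on glucose uptake, at 2.61 ± 0.55. Txnip was the uneven member, with 68.2, 328 and 129 CPM in MCAO 4, 5 and 6 against 25.1, 34.4 and 26.8 CPM in control, and its value was 1.80 without MCAO 5. Sesn3 was more even, lying at 31.9, 37.3 and 30.5 CPM against 18.7, 21.4 and 20.2 CPM.

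Trp53inp1, a p53-induced gene of autophagy and cell death, was at 11.8, 14.6 and 10.9 CPM in control 4, 5 and 6 and at 57.4, 70.6 and 51.5 CPM in MCAO 4, 5 and 6 (2.27 ± 0.19), and Cdkn1a, which encodes the cell cycle inhibitor p21, at 18.0, 7.92 and 22.1 CPM in control 4, 5 and 6 and at 169, 97.3 and 159.9 CPM in MCAO 4, 5 and 6 (3.15 ± 0.42). In both genes the lowest MCAO library lay more than 3-fold above the highest control. They were the only 2 called among 16 tested p53 targets and BCL2 family members, although DESeq2 called 9 higher and 1 lower. MCAO values lay wholly above control in 9 of the 16, against 16.4% of all tested genes. None of 14 caspases and other death effectors was called by edgeR, with 2 at an unadjusted p under 0.05, and DESeq2 called 2 and limma voom 6 higher.

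The transcription factor gene Sox4, active in developing neurons and glia, rose from 17.4, 18.3 and 15.3 to 50.9, 52.2 and 59.6 CPM (1.67 ± 0.15). Nrros, a microglial and macrophage protein that holds latent TGF-beta at the cell surface, rose from 4.49, 5.26 and 4.79 to 20.3, 21.7 and 17.1 CPM (2.02 ± 0.20), and the gene of its partner Tgfb1 rose by 1.94 ± 0.37. Osgin1, a target of the antioxidant factor NRF2, rose from 0.318, 0.137 and 0.182 to 3.22, 4.98 and 5.22 CPM (4.38 ± 0.50), the only edgeR call among 12 NRF2 targets. All 12 had a positive estimate, with a median of 0.50, and DESeq2 called 5 and limma voom 6 higher. Hmox1, the haem-degrading enzyme on that list, stood at 7.16, 7.40 and 6.33 CPM in control and at 7.21, 199.97 and 36.8 CPM in MCAO (adjusted p = 0.0916), so that MCAO 4 overlapped the controls. Phyhd1, a dioxygenase, and Lrrc58 rose by 2.08 ± 0.16 and 1.38 ± 0.16. Of the genes named here and further on, exons of Phyhd1, Lrrc58, Ctla2a, Gbp4, Ctsl, Hdac5, Fdps and Spp1 overlap other annotated genes on the same strand. Exons of Plin4, Sox4, Pik3ip1, Agpat1, Elovl6, Bdnf, Spred3, Idi1, Ch25h, Cdkn1a, Slc2a1, Ctsl, Il1b, Shank1, Shank3, Nrn1, Nefl, Csf1r, Car14, Cyp51, Eml1, Hmgcs1, Il1a, Lss, Mt2, Npc1, P2ry12 and Txnip overlap genes on the opposite strand. How the authors' counting treated such reads is not stated in the labels, so the values of these genes are uncertain to that extent.

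Of 12 tested glucocorticoid-induced genes 7 rose and none fell, against 2.38% and 2.33% of all tested genes, and all 12 had a positive log2 fold change, with a median of 1.37. Fkbp5, a chaperone that dampens the glucocorticoid receptor, was at 31.7, 73.8 and 27.5 CPM in control 4, 5 and 6 and at 182, 274 and 184 CPM in MCAO 4, 5 and 6 (2.27 ± 0.41, adjusted p = 0.0409). The kinase gene Sgk1 was at 94.6, 129.6 and 94.7 CPM in control 4, 5 and 6 and at 258, 318 and 306 CPM in MCAO 4, 5 and 6, and the kinase gene Map3k6 at 5.76, 3.02 and 5.27 CPM in control 4, 5 and 6 and at 14.0, 27.0 and 25.5 CPM in MCAO 4, 5 and 6. The metallothionein genes Mt1 and Mt2, whose proteins bind zinc and copper, rose by 1.76 ± 0.30 and 2.17 ± 0.37, and Nfkbia, the inhibitor of NF-kB, by 1.27 ± 0.19. Plin4, described above, was also called. In all 7 the lowest MCAO library exceeded the highest control, and the members averaged 6.92, 7.12 and 7.30 log2 CPM in MCAO 4, 5 and 6, with controls at 5.37 to 5.70. MCAO 4, the MCAO library nearest control on the complement, matrix and phagocytic lists, lay well above the highest control here.

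Windows from 250 bases before to 50 bases after annotated starts were searched in all tested genes with a promoter sequence, not only in this list. The first motif was the palindrome of the glucocorticoid receptor, GNACA and TGTNC with 3 bases between them, on both strands. The motif was present in 8 of 278 higher genes with a promoter sequence (2.88%), 1 of 269 lower genes (0.372%) and 51 of all 11472 tested genes with one (0.445%). The windows of Sgk1, Mt1, Map3k6 and Txnip are shown because each of these genes rose and holds the motif, which is in capitals. They are RefSeq sequences of build GRCm38.p6, all on the plus strand, at chr10:21993640-21993939 for Sgk1, chr8:94178839-94179138 for Mt1, chr4:133240568-133240867 for Map3k6 and chr3:96557707-96558006 for Txnip.
Sgk1: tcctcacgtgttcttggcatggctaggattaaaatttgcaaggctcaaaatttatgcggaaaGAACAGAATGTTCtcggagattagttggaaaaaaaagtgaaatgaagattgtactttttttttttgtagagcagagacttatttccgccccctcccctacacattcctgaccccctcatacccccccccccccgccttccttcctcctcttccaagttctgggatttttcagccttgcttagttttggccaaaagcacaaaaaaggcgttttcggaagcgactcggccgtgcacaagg
Mt1: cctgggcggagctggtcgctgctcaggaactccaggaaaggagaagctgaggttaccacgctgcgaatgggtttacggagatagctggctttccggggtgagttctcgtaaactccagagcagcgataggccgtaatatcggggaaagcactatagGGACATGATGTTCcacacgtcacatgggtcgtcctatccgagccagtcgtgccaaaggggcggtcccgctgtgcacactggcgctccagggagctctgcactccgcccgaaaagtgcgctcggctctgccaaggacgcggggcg
Map3k6: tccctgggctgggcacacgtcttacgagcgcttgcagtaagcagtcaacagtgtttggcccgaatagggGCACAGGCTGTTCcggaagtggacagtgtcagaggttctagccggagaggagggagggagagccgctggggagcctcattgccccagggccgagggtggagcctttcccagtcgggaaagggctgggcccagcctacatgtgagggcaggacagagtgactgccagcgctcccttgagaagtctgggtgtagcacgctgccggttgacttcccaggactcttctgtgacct
Txnip: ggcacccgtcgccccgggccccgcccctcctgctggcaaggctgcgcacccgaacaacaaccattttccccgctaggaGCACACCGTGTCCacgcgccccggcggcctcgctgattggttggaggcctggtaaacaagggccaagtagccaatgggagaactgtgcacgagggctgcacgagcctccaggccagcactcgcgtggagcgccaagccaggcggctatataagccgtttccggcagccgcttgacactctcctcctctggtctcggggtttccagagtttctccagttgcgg
The match began 188 bases before the start in Sgk1, 94 in Mt1, 181 in Map3k6 and 172 in Txnip. A match describes these letters and does not show that the receptor was bound. The other 4 higher genes with the motif were Car14, Cpxm1, Gnmt and Slc10a6, and the lower gene was Eml1. Of the 7 called glucocorticoid-induced genes, Sgk1, Mt1 and Map3k6 held it, and no match was found for Fkbp5, Mt2, Nfkbia and Plin4. Txnip is from the FOXO list.

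The other 5 motifs were searched in the same windows, on both strands. The FOXO site GTAAACA was in 4.68% of higher, 1.86% of lower and 3.07% of all genes, Sesn1 and Txnip among the higher ones. The cyclic AMP response element TGACGTCA, bound by the activity-regulated factor CREB, was in 2.88% of higher, 5.95% of lower and 3.4% of all genes. The AP-1 site TGAGTCA was in 5.4%, 3.35% and 4.59%, the heat shock element (GAA, TTC and GAA with 2 bases between neighbours) in 0.36%, 1.49% and 0.558%, and the sterol regulatory element TCACNCCAC in 2.88%, 1.86% and 1.39%. These shares are descriptions over small counts and were not tested.

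Genes of sterol synthesis and uptake were lower after MCAO in 11 cases, from early to late steps. Of 20 tested genes edgeR called 11 lower and 0 higher, limma voom called 15 lower and 1 higher, and the median log2 fold change was -0.99. MCAO values lay wholly below control in 17 of the 20, against 17.6% of all tested genes. Msmo1 (chr8:64718139-64733792, minus strand), a demethylase late in the pathway, was at 96.2, 82.4 and 92.3 CPM in control 4, 5 and 6 and at 27.0, 27.3 and 34.3 CPM in MCAO 4, 5 and 6 (-1.61 ± 0.15, adjusted p = 0.0252). Idi1, the isomerase that makes the reactive isoprene unit, was at 20.6, 20.4 and 18.8 CPM in control 4, 5 and 6 and at 6.31, 5.19 and 6.78 CPM in MCAO 4, 5 and 6 (-1.71 ± 0.20). Hmgcs1, a synthase early in the pathway, was at 293, 295 and 288 CPM in control 4, 5 and 6 and at 118, 93.9 and 130.1 CPM in MCAO 4, 5 and 6 (-1.36 ± 0.16). In each of the 3 genes the highest MCAO library lay more than 2-fold below the lowest control.

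The regulator gene Srebf2, whose product switches on this pathway when sterols are scarce, fell by 1.17 ± 0.20, and Cyp51, Sqle, Nsdhl, Dhcr7, Sc5d, Fdps and Stard4 were called as well, with log2 fold changes from -1.41 to -0.89. Lss, which closes the sterol rings, had MCAO values of 43.2, 28.5 and 45.7 CPM against control values of 33.8, 29.3 and 32.6 CPM, so its groups overlapped (adjusted p = 0.381). Of the 11 lower genes Hmgcs1 is the only one whose window held TCACNCCAC, 137 bases before its start, and it is shown with the motif in capitals (RefSeq, GRCm38.p6, chr13:119690101-119690400, plus strand).
Hmgcs1: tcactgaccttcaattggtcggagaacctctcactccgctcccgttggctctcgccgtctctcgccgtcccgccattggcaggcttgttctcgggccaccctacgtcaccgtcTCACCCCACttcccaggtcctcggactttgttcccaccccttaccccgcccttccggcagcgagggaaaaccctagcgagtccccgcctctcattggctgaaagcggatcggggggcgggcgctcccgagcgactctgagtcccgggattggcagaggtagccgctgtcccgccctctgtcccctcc

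On the sterol export and lipoprotein list edgeR called 4 of 12 tested genes higher and 0 lower, and DESeq2 called 6 higher and 1 lower. Abca1, the pump that loads cholesterol onto apolipoproteins, was at 33.3, 35.6 and 34.5 CPM in control 4, 5 and 6 and at 130.5, 378 and 197 CPM in MCAO 4, 5 and 6 (2.77 ± 0.38). Abcg1, another such pump, rose evenly from 73.2, 72.8 and 76.7 to 132, 123 and 109 CPM. Ch25h, the enzyme that makes 25-hydroxycholesterol, rose by 3.08 ± 0.47 and Npc1, which moves cholesterol out of lysosomes, by 0.84 ± 0.17. Other lipid enzymes fell: Agpat1, which adds a fatty acid in glycerolipid synthesis, by 1.23 ± 0.14, Elovl6, which lengthens fatty acids, by 1.28 ± 0.14, and the peroxisome assembly gene Pex6 by 1.39 ± 0.16.

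**Figure D2:**
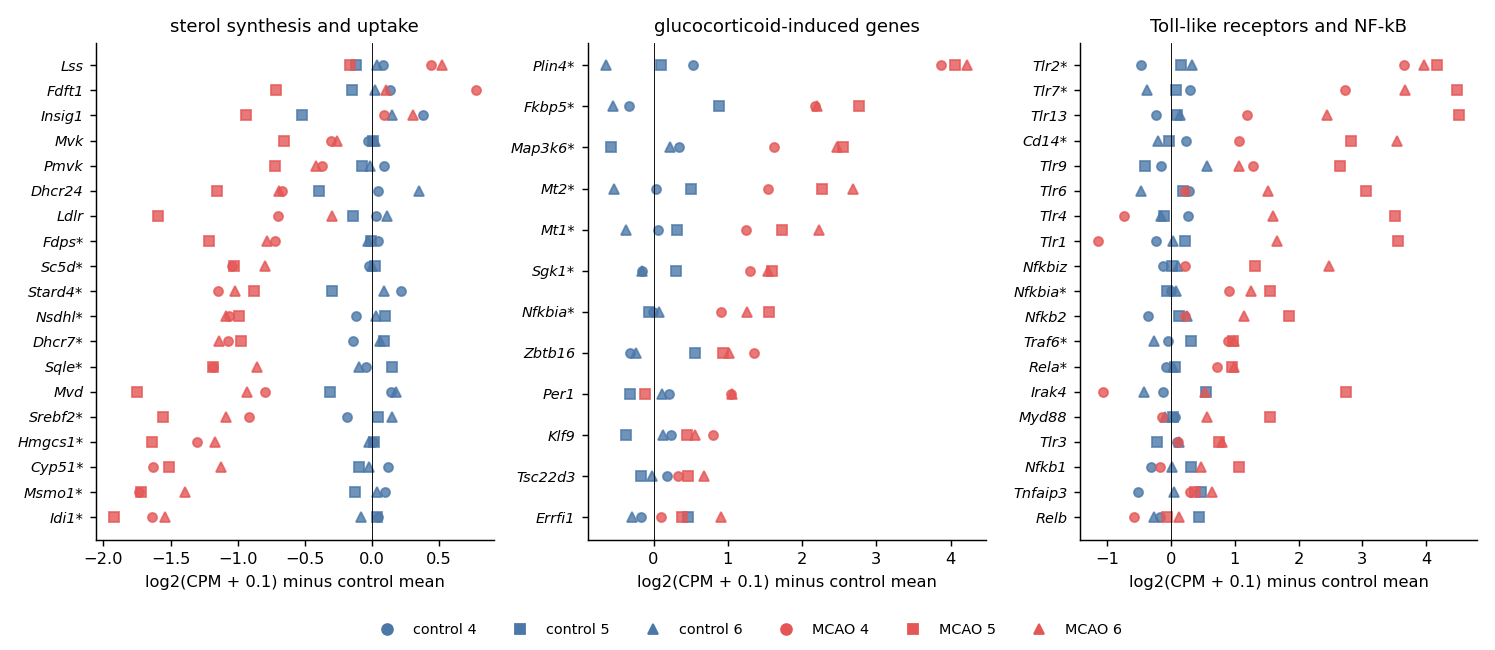
Each row is a gene of 3 lists and each point 1 library, as log2 of CPM plus 0.1 minus the mean of the 3 controls, with called genes starred and 1 sterol gene not drawn. The sterol panel has 11 starred genes, all with the MCAO points left of control, the glucocorticoid panel 7 and the Toll-like receptor panel 6, all to the right.

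Of 19 tested genes of Toll-like receptors and NF-kB, 6 rose, against 2.38% of all tested genes. Tlr2 (chr3:83836272-83841767, minus strand), the receptor for bacterial lipoproteins and for products of damaged tissue, was at 0.605, 0.987 and 1.12 CPM in control 4, 5 and 6 and at 12.2, 17.5 and 15.2 CPM in MCAO 4, 5 and 6 (4.04 ± 0.34, adjusted p = 0.0236). Tlr7, a receptor for single-stranded RNA, rose from 5.48, 4.71 and 3.39 to 30.0, 101.3 and 57.4 CPM (3.80 ± 0.47), and the co-receptor gene Cd14 by 2.83 ± 0.59, or 2.23 without MCAO 6. Downstream of them the adaptor gene Traf6 rose by 0.93 ± 0.19, the NF-kB subunit gene Rela by 0.89 ± 0.15 and the inhibitor gene Nfkbia by 1.27 ± 0.19. None of the 19 fell, and the median of the list was 1.56, or 0.94 without MCAO 5. Tlr4, the endotoxin receptor, was at 1.19, 24.3 and 6.40 CPM in MCAO 4, 5 and 6 against 1.82 to 2.48 CPM in control, so that MCAO 4 lay below the controls and MCAO 5 far above (adjusted p = 0.154).

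Of the cytokines and chemokines, 4 of 14 tested rose. Ccl3 was at 0.127, 0.164 and 0.0606 CPM in control 4, 5 and 6 and at 6.11, 7.93 and 3.10 CPM in MCAO 4, 5 and 6 (5.56 ± 0.60, adjusted p = 0.0277), and its neighbour Ccl4, a closely related gene, at 0.0637, 0.0274 and 0.0303 CPM in control and 1.84, 0.917 and 0.741 CPM in MCAO. The cytokine gene Il1a rose by 2.70 ± 0.55. With Tgfb1 these were the 4 called of 14 tested cytokines and chemokines. Il6 and Tnf had only 7 and 41 counts over the 6 libraries and could not be tested, and Il1b lay between 0.0548 and 0.55 CPM (adjusted p = 0.273). Among cytokine receptors and their signalling genes 3 of 14 rose: the oncostatin M receptor gene Osmr (2.80 ± 0.54), the feedback inhibitor gene Socs3 (3.25 ± 0.59) and the TNF receptor gene Tnfrsf1b (2.55 ± 0.53, or 1.86 without MCAO 5). Mfge8, a secreted bridge by which phagocytes take up dying cells, went down, from 179, 159.8 and 158 to 58.5, 70.8 and 51.8 CPM (-1.46 ± 0.16).

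Large log2 fold changes were also seen in genes of phagocytic microglia, macrophages, complement, reactive astrocytes and scar matrix, most of them uneven over the MCAO libraries and not called. Of 218 tested genes with a log2 fold change of at least 3, 69 were called, and of the 149 not called MCAO 5 was the highest MCAO library in 132. The osteopontin gene Spp1 stood at 23.2, 4987 and 295 CPM in MCAO 4, 5 and 6 against 11.9, 10.9 and 13.3 CPM in control (adjusted p = 0.0683), and the lysosomal gene Gpnmb at 4.05, 915 and 105 CPM against 1.496, 5.78 and 2.27 CPM (adjusted p = 0.0742). In MCAO 4 Spp1 lay above the control range and Gpnmb within it. Without MCAO 5 the log2 fold changes were 3.76 and 4.12. Phagocytic microglia genes had 1 of 16 called, the cathepsin inhibitor gene Cst7, at 3.22, 13.4 and 6.45 CPM in MCAO and 0.159, 0.192 and 0.0606 CPM in control (5.76 ± 0.74, or 5.12 without MCAO 5). The 16 genes averaged 3.22, 7.14 and 5.10 log2 CPM in MCAO 4, 5 and 6, with controls at 2.30 to 2.86.

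The same order of MCAO libraries, with 5 highest and 4 nearest control, held for the mean log2 CPM of the complement, matrix, macrophage, lysosomal and reactive astrocyte lists. Complement genes had 0 of 16 called by edgeR, with 12 at an unadjusted p under 0.05, 12 called by DESeq2 and 11 by limma voom, and their median log2 fold change of 2.47 became 1.39 without MCAO 5. Of 17 matrix and scar genes 3 rose: Col6a1 by 2.44 ± 0.45, the proteoglycan gene Vcan by 1.51 ± 0.30 and the matrix glycoprotein gene Sparc, from 199.7, 349 and 184 to 520.3, 892 and 660.5 CPM. The matrix median of 2.57 became 1.29 without MCAO 5, and Col1a1, a collagen of fibrous scar, was at 5.37, 305 and 24.3 CPM in MCAO 4, 5 and 6 against 7.80, 7.21 and 7.24 CPM in control (adjusted p = 0.116). Macrophage and monocyte genes had 0 of 10 called by edgeR, with 7 at an unadjusted p under 0.05, 6 called higher by DESeq2, 3 higher and 1 lower by limma voom, and a median of 2.86, or 0.88 without MCAO 5. Of 16 lysosomal genes the protease gene Ctsl alone was called (1.89 ± 0.40), though 11 had MCAO values wholly above control (16.4% of all tested genes). With all 9 libraries in the fit, 11 phagocytic microglia, 10 complement, 10 matrix, 11 lysosomal and 13 reactive astrocyte genes were called higher. In tissue RNA more cells of a type and more RNA per cell cannot be told apart.

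**Figure D3:**
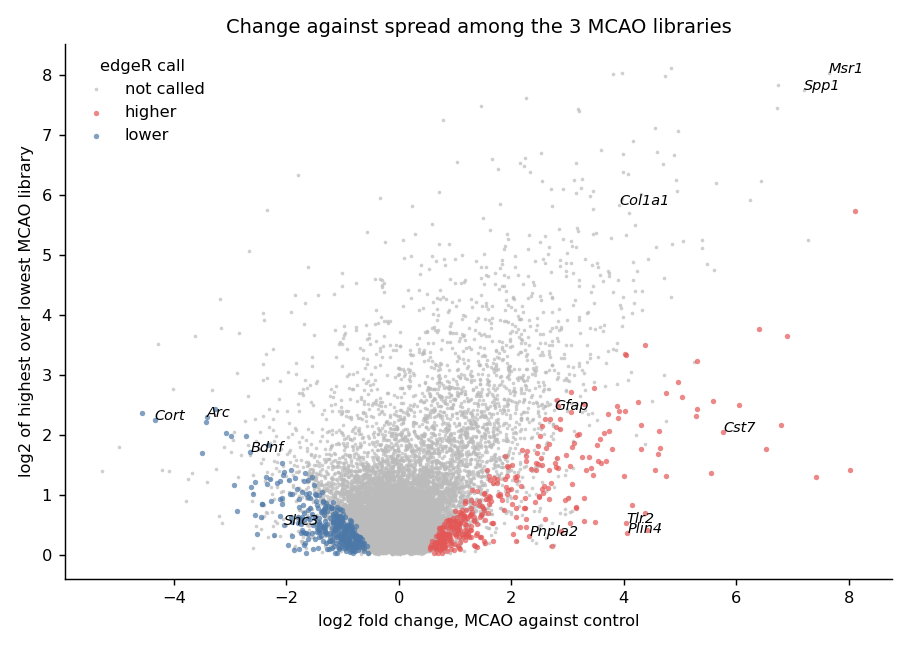
Each point is 1 tested gene with a count in every MCAO library, placed by its log2 fold change (x) and by the log2 ratio of its highest to its lowest MCAO library (y), red or blue where called higher or lower. Pnpla2, Plin4 and Tlr2 lie low and to the right, while Spp1, Msr1 and Col1a1, which were not called, lie further up.

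Among reactive astrocyte genes 3 of 17 were called higher: Osmr, the metalloreductase gene Steap4 (5.04 ± 0.87, or 3.90 without MCAO 5) and the asparaginase gene Aspg (4.38 ± 0.87, or 3.69 without MCAO 5). Gfap, the intermediate filament that marks astrocyte reaction, was at 204, 666 and 118 CPM in control and 609, 2842 and 3255 CPM in MCAO (adjusted p = 0.0921), so that control 5 lay above MCAO 4. Without control 5 its log2 fold change of 2.76 became 3.78. Genes of resting astrocytes had 1 of 14 called, the gap junction gene Gjb6 (1.62 ± 0.29). Homeostatic microglia genes had 1 of 13 called, the growth factor receptor gene Csf1r, at 97.4, 107 and 106 CPM in control 4, 5 and 6 and at 156, 330.3 and 282 CPM in MCAO 4, 5 and 6 (1.31 ± 0.27), while P2ry12, a receptor that resting microglia use to sense injury, stood at 52.7, 55.8 and 48.4 CPM in control and 30.3, 52.4 and 38.1 CPM in MCAO (adjusted p = 0.285). The 13 homeostatic genes averaged 4.39, 6.07 and 4.85 log2 CPM in MCAO 4, 5 and 6, with controls at 4.93 to 5.12. Their median log2 fold change of 0.17 became -0.44 without MCAO 5, and limma voom called 3 higher and 3 lower. Of the 12 lymphocyte genes only Cd4, which microglia and macrophages can also express, and Cd79a had enough counts to be tested. Cd4 stood at 0.796, 0.164 and 0.939 CPM in control and 1.02, 0.812 and 0.659 CPM in MCAO, and Cd79a at 0.509, 0.137 and 0.151 and 0.509, 0.733 and 0.933 CPM (adjusted p = 0.733 and 0.207), and limma voom called 1 of them higher. Over the 6 libraries Cd79b had 66 counts, Gzma 38 and Nkg7 11, while Cd3e, Cd3d, Cd3g, Cd8a and Ms4a1 had 6 or fewer each.

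Vessel genes gave 1 call of 13, the tight junction gene Cldn5, at 15.6, 13.1 and 25.5 CPM in control 4, 5 and 6 and at 38.1, 90.9 and 71.9 CPM in MCAO 4, 5 and 6 (1.89 ± 0.38). Of the 13, 7 lay wholly above control, against 16.4% of all tested genes. Slc2a1, the glucose transporter of the blood-brain barrier, rose by 1.34 ± 0.24 and was the 1 higher gene among 16 of hypoxia and glycolysis. In that list 10 estimates were positive and 6 negative, and limma voom called 5 higher and 2 lower. Wholly above control lay 3 members and wholly below it 3, near the 16.4% and 17.6% of all tested genes. Ldha, which makes lactate, fell from 363, 339.9 and 383 to 202, 243 and 182 CPM (-0.79 ± 0.16), and Vegfa, the vessel growth factor, stood lower in all MCAO libraries, at 26.7, 17.1 and 27.4 against 52.97, 40.3 and 54.6 CPM, without passing the test (adjusted p = 0.0506). The receptor gene Plaur, which gathers the protease urokinase at the cell surface, rose by 3.74 ± 0.70, or 2.86 without MCAO 6, and Ctla2a by 4.76 ± 0.72, with 28.7, 185 and 138 CPM in MCAO 4, 5 and 6.

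Neurotrophin signalling genes fell in 4 of 10 tested. Shc3 (chr13:51431041-51569419, minus strand), a neuronal adaptor that links Trk neurotrophin receptors to their pathways, was at 204, 158 and 224 CPM in control 4, 5 and 6 and at 57.7, 43.7 and 40.7 CPM in MCAO 4, 5 and 6 (-2.04 ± 0.20, adjusted p = 0.0252). Bdnf, the neurotrophin most tied to activity, was at 32.7, 49.4 and 30.7 CPM in control 4, 5 and 6 and at 3.59, 3.38 and 11.1 CPM in MCAO 4, 5 and 6 (-2.64 ± 0.51, or -3.43 without MCAO 6). Nrn1, an activity-regulated promoter of neurite growth, fell from 332, 245 and 319 to 116, 74.7 and 81.6 CPM (-1.72 ± 0.22) and the secreted peptide precursor gene Vgf from 237, 180.2 and 302 to 68.5, 54.9 and 97.4 CPM (-1.70 ± 0.28). These 4 were the edgeR calls of the list, of which limma voom called 5 lower and 1 higher, and the list median was -1.14. Mean log2 CPM of the list was 4.58 to 4.69 in all 3 MCAO libraries and 5.44 to 6.02 in control, with the 3 MCAO libraries close together.

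Immediate-early genes, which neurons switch on within minutes of firing, split the MCAO libraries. Arc, whose protein trims glutamate receptors at synapses, fell in all, to 15.3, 30.0 and 74.8 CPM in MCAO 4, 5 and 6 from 569, 179 and 532 CPM in control (-3.41 ± 0.70, or -4.23 without MCAO 6). Fos was at 7.21, 13.5 and 228 CPM in MCAO 4, 5 and 6 against 82.0, 23.7 and 59.1 CPM in control, and Npas4 at 0.622, 0.576 and 87.1 CPM against 25.7, 7.65 and 17.7 CPM (adjusted p = 0.774 and 0.781). In both genes MCAO 4 and 5 lay below every control and MCAO 6 above every control, and both were chosen after their values were seen. The mean log2 CPM of the 16 genes was 3.33 and 3.29 in MCAO 4 and 5, 5.94 in MCAO 6 and 5.40 to 6.07 in control. Only Arc and Bdnf of the list were called. Of 12 feedback inhibitors of the ERK kinases, Spred3 and Spred2 fell by 1.78 ± 0.22 and 0.73 ± 0.13, Spred3 with MCAO values between 10.9 and 11.7 CPM and controls between 28.6 and 47.7 CPM.

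Synaptic receptors and scaffolds fell in a few members. Of 18 glutamate receptor and scaffold genes 3 were called lower, the postsynaptic scaffolds Shank1 (-1.37 ± 0.27) and Shank3 (-1.06 ± 0.18) and the metabotropic receptor gene Grm3 (-1.02 ± 0.17), and 17 of 18 had a negative estimate, with a median of -0.65. Gabra2, a subunit of the GABA-A receptor, was at 45.6, 67.3 and 41.2 CPM in control 4, 5 and 6 and at 14.7, 13.9 and 14.1 CPM in MCAO 4, 5 and 6 (-1.86 ± 0.22), the only call of 12 in its list. Of 26 potassium channels and 18 sodium, calcium and HCN channels none was called by edgeR. At an unadjusted p under 0.05, where edgeR gave 4201 of all 14489 tested genes in both directions together, 8 potassium channels were lower and none higher. Of the other channels 3 were lower and 1 higher. DESeq2 called 5 and 2 lower, and limma voom 17 and 9 lower with 1 and 2 higher. None of 11 serotonin receptors was called by edgeR (2 lower at an unadjusted p under 0.05, 1 by DESeq2, 2 lower and 1 higher by limma voom), and control 5 carried the highest mean level of that list, 3.40 against 1.56 to 2.25 log2 CPM elsewhere.

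The peptide genes Cort and Sst, expressed by cortical interneurons, fell in every MCAO library. Cort, which encodes cortistatin, was at 7.00, 6.39 and 6.42 CPM in control and 0.622, 0.131 and 0.22 CPM in MCAO (-4.34 ± 0.61, or -5.22 without MCAO 4). The somatostatin gene Sst was at 249, 307 and 289 CPM in control 4, 5 and 6 and at 128, 74.3 and 108 CPM in MCAO 4, 5 and 6 (-1.44 ± 0.22). They were the 2 called of 14 interneuron genes, all of which had a negative estimate. The window of Sst (RefSeq, GRCm38.p6, chr16:23890795-23891094, minus strand) is shown with its cyclic AMP response element in capitals, 48 bases before the start, because Sst is the called interneuron gene that holds it.
Sst: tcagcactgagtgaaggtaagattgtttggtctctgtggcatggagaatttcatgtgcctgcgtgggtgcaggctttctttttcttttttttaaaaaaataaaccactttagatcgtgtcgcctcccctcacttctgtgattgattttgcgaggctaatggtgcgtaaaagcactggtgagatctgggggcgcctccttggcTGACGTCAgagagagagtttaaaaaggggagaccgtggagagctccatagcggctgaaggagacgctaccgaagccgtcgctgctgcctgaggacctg
Among genes of neurons in general 1 of 13 was called, the neurofilament gene Nefl (-1.05 ± 0.22), and among 15 genes of glutamatergic and cortical layer neurons none was called by edgeR (1 lower at an unadjusted p under 0.05, 1 lower by DESeq2, 5 lower by limma voom). Mean log2 CPM of the pan-neuronal list was 9.35, 8.53 and 9.09 in MCAO 4, 5 and 6 and 9.22 to 9.67 in control. The interneuron list averaged 5.36, 4.49 and 4.82 log2 CPM in MCAO 4, 5 and 6 and 5.55 to 6.06 in control, so that all 3 MCAO libraries lay below the controls there, and MCAO 4 lay inside the control range on the pan-neuronal list. Whether region or neuron number takes part in the neuronal results was not tested.

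**Figure D4:**
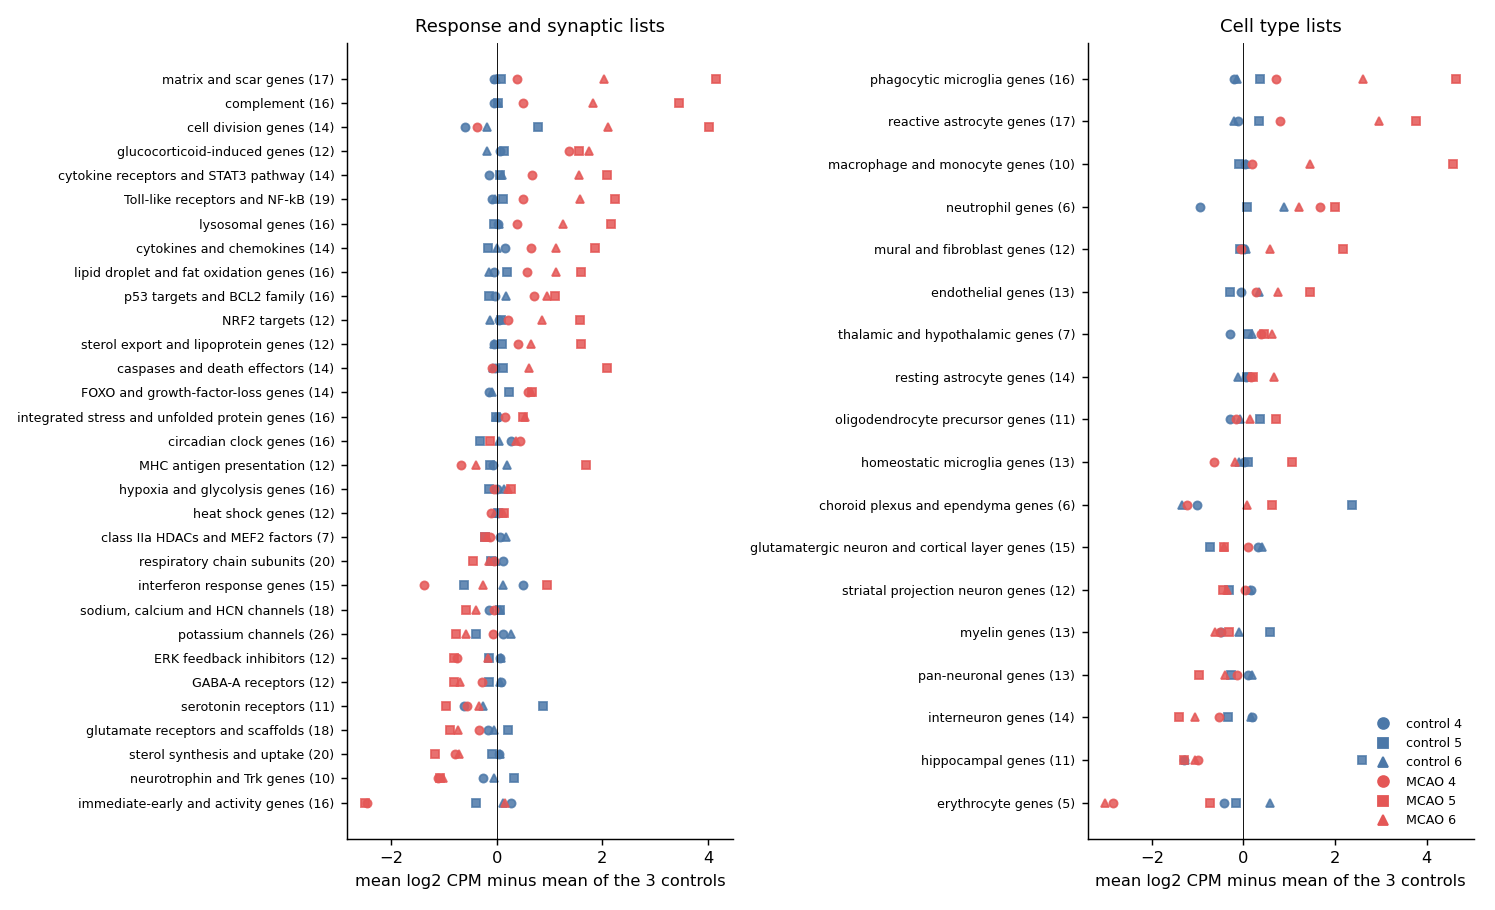
For each list with at least 5 tested genes (number in brackets), the mean log2 CPM of each library minus the mean of the 3 controls. Glucocorticoid-induced, sterol, neurotrophin and FOXO lists have 3 MCAO points close together, phagocytic microglia, complement and matrix lists a wide fan with MCAO 5 at the far end, and the hippocampal and choroid plexus lists a control 5 far from the other controls.

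Single members of several other lists fell. Hsph1, a co-chaperone of HSP70, was at 344, 361 and 368 CPM in control 4, 5 and 6 and at 145, 134 and 111 CPM in MCAO 4, 5 and 6 (-1.46 ± 0.15) and was the only call of 12 heat shock genes. Tufm, the elongation factor of mitochondrial translation, fell from 60.6, 58.8 and 61.0 to 26.6, 28.6 and 24.1 CPM (-1.19 ± 0.13), and Cycs, which encodes cytochrome c, by 0.87 ± 0.16, the 1 call among 20 respiratory chain genes. The class IIa histone deacetylase genes Hdac9 and Hdac5, which repress the activity-dependent MEF2 factors, fell by 1.74 ± 0.17 and 0.97 ± 0.15, Hdac9 from 42.8, 49.4 and 40.6 to 14.9, 13.2 and 11.6 CPM. The 5 other members of that list were not called by edgeR, and limma voom called 2 of them higher. The clock gene Per2 fell by 1.02 ± 0.15 and was the only call of 16 clock genes. The list as a whole did not fall, with 13 positive and 3 negative estimates and a median of 0.33. Limma voom called 7 clock genes higher and 2 lower. In the stress lists Atf3, a factor induced by injury, rose by 3.20 ± 0.54 and Ddit4, an inhibitor of mTORC1, by 1.08 ± 0.21. They were the 2 called of 16 integrated stress and unfolded protein genes. That list was mixed, with 10 positive and 6 negative estimates and a median of 0.20. DESeq2 called 4 of its genes higher and 2 lower, and limma voom 7 higher and 3 lower.

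Ankrd34a, with ankyrin repeats, was at 83.7, 70.0 and 93.5 CPM in control 4, 5 and 6 and at 27.9, 26.0 and 24.3 CPM in MCAO 4, 5 and 6 (-1.66 ± 0.16, adjusted p = 0.0252), and Fbxo9, a substrate receptor of a ubiquitin ligase, at 131, 85.1 and 123 CPM in control 4, 5 and 6 and at 27.0, 30.4 and 28.9 CPM in MCAO 4, 5 and 6 (-1.97 ± 0.19). The phosphatase inhibitor gene Ppp1r11 fell by 1.23 ± 0.14. The largest falls among genes with at least 1 CPM in MCAO were those of Arc, the interferon-induced GTPase gene Gbp4, Kctd21, the synapse organiser gene Cbln4, the guanylate cyclase gene Gucy2g and Bdnf. Kctd21 was at 20.8, 22.3 and 22.2 CPM in control and 1.22, 4.98 and 1.54 CPM in MCAO (-3.07 ± 0.55, or -3.96 without MCAO 5). Gbp4, whose exons overlap those of its relatives Gbp8 and Gbp9 so that its counts are uncertain, had -3.26 ± 0.65, or -4.17 without MCAO 5, and Cbln4 -2.99 ± 0.64, or -3.89 without MCAO 4. None of 15 interferon response genes was called by edgeR (0 at an unadjusted p under 0.05, 0 by DESeq2, 4 lower by limma voom).

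Red cell genes stood lower in MCAO without passing the test. Haemoglobin gene Hbb-bs was at 4.33, 16.3 and 1.51 CPM in MCAO 4, 5 and 6 against 32.6, 25.7 and 46.1 CPM in control (adjusted p = 0.121). None of 5 erythrocyte genes was called by edgeR, with 3 lower at an unadjusted p under 0.05, 2 by DESeq2 and 5 by limma voom. Their mean log2 CPM was -0.38, 1.73 and -0.55 in MCAO 4, 5 and 6 and 2.05 to 3.05 in control, so red cell genes moved with the group, and their part in the results above was not tested. Myelin genes had 1 of 13 called, Opalin, a protein of mature oligodendrocytes, which fell by 1.80 ± 0.34, and precursor genes 0 of 11 by edgeR (1 higher at an unadjusted p under 0.05, 0 by DESeq2, 5 higher by limma voom).

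No gene of 8 further lists was called by edgeR. Their counts at an unadjusted p under 0.05 stand against 4201 of all 14489 tested genes, a total of higher and lower genes together. At an unadjusted p under 0.05 edgeR gave 7 higher of 14 cell division genes (9 called by DESeq2 and 7 by limma voom), 3 higher of 6 neutrophil genes (2 and 3) and 4 higher of 12 mural and fibroblast genes (4 and 3). Of 12 MHC antigen presentation genes 3 were higher at that level, 2 by DESeq2, and 4 higher and 4 lower by limma voom. Without MCAO 5 the median log2 fold change went from 2.77 to 1.29 for cell division genes and from 1.03 to 0.21 for mural and fibroblast genes. For MHC genes it went from 0.79 to -0.005 and for neutrophil genes from 1.28 to 1.18. Cell division genes averaged -0.84, 3.54 and 1.63 log2 CPM in MCAO 4, 5 and 6, with controls at -1.08 to 0.31. For regions, 1 of 12 striatal genes was higher and 2 lower (DESeq2 2 lower, limma voom 2 higher and 4 lower), and 1 of 7 thalamic and hypothalamic genes higher (1 and 2). Hippocampal genes, high in control 5, had 4 of 11 lower (DESeq2 0, limma voom 2 higher and 2 lower), and choroid plexus genes 0 of 6 (0, and 1 lower).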

How the data were processed

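RNA-seq was run on mouse brain tissue. The authors deposited a table of raw counts by gene symbol and one of FPKM (scaled to gene length and library total), and their table of comparisons holds fold changes (ratios) and q-values. Build mm10 and DESeq2 are named per the submitters' processing notes, without a role; no source used here states the aligner, counter or strand setting. Groups follow the labels. From the deposited counts, genes passing edgeR's filterByExpr were tested with edgeR 4.0.16 (R 4.3.3), TMM scaling and the quasi-likelihood F test, two-sided, with Benjamini-Hochberg adjustment at 0.05, on the 6 libraries alone because the spread differed between groups. All fold changes are log2, MCAO minus control, and SE is its size over the square root of F. A gene is called, and is said to rise or fall, at an adjusted p under 0.05. CPM are TMM-scaled. Alternatives used DESeq2 1.42.0, limma 3.58.1 (voom, and log2 of FPKM plus 1), all 9 libraries, other scalings and filters, and each library left out. The edgeR, DESeq2 and limma fits were tested on simulated data. The simulation gave each gene the same spread in both groups, so it cannot show how the fits behave at the unequal spread seen here.

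The members and gene lists were chosen with earlier results of these data known. Named genes are, by rule, the 12 called genes of lowest p (at least 2-fold, average log2 CPM of at least 1) and the 6 of largest fold (at least 1 CPM in the lower group) in each direction, and the first member and the 2 called members of lowest p of each list. Further list members, motif holders, Kdm5d, Ddx3x, Ddx3y, Eif2s3y, Cd4, Cd79a, Fos, Npas4, Spp1, Gpnmb, Msr1, P2ry12, Tlr4 and Lss were chosen after their values were seen. Promoters came from RefSeq (GRCm38.p6), with an entry for 11472 of 14489 tested genes, and exon overlaps from GENCODE M21. Some genes of the lists or of the naming rule are not reported here.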

Additional observations from a re-analysis of the deposited data

How the results depend on the processing

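Against 345 higher and 337 lower genes, DESeq2 called 1596 and 1333, limma voom 3157 and 3412, limma on log2 FPKM plus 1 called 185 and 212, and the fit of all 9 libraries 1567 and 1448. Library totals in place of TMM gave 265 and 198, with the median log2 fold change of all genes moving to 0.05, and a 2-fold minimum left 245 and 216. Leaving out 1 library gave 0 to 1139 higher and 0 to 698 lower. All 682 genes kept their sign in these fits, 433 of them called with library totals and 335 with FPKM. Title numbers 4, 5 and 6 occur in both groups. The deviations of same-numbered libraries correlated at 0.12, 0.13 and -0.04, and 3 of 6 libraries correlated best with their own number. With 3 numbers and no reference for such correlations, these values cannot decide whether the numbers pair the samples. With the number as a replicate block edgeR called 0 higher and 0 lower genes, with 3849 at an unadjusted p under 0.05, and DESeq2 and limma were not run with the block. The uncalled gene Fos, at 0.60, turned to -0.61 on the FPKM scale, -0.77 with the replicate block and -2.40 without MCAO 6, and Npas4, at 0.79, to -0.38, -2.62 and -4.82. Without MCAO 5 they were 1.14 and 1.40. Cd4, also uncalled, at 0.39, turned to -0.15 with limma voom and -0.083 without control 5. The cause of these shifts was not tested. With 3 libraries a group and 4 residual degrees of freedom, a gene that varied among MCAO libraries could be missed at any depth.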
